A study of Mus musculus with 16 samples.

Results

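Mouse hearts were compared at 72 h and at 24 h of reperfusion after a temporary closure of a coronary artery. The comparison used 8 of the 16 arrays of the series, 4 labelled 72 h and 4 labelled 24 h, and it covered every gene that the array annotation names. Where a gene had several probe sets the brightest was used, and each change is the mean log2 signal at 72 h minus the mean at 24 h. All mice were wild-type C57BL/6 males, 10 weeks old. In both groups the left anterior descending artery, which feeds the front wall of the left ventricle, was ligated for 30 min and then reopened, and total RNA was taken from the heart after 24 or 72 h. The 4 sham hearts are given beside the results as the level without ischemia. The sham labels give no hours, so a sham level belongs to no single time after surgery. RNA of the whole organ mixes the injured wall with tissue that was never ischemic. The question is which transcripts moved between these stages of repair.

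Healing of the reperfused heart is usually described in phases. Neutrophils and inflammatory monocytes enter first and clear dead tissue. Macrophages of another character, dividing stromal cells and fibroblasts that lay down collagen follow. Heart muscle cells near the injury switch on stress and stretch genes, such as the natriuretic peptides and the muscle ankyrin repeat proteins, and damp genes of ion channels and metabolism.

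Each heart gave 1 array, and arrays are listed throughout by replicate number, 14 to 17 for 24 h and 20 to 23 for 72 h. With 4 arrays a group, the standard error (SE) of a change had a median of 0.183 on the log2 scale, and every ± below is an SE from the limma fit. The SD across hearts was larger at 24 h than at 72 h for 61.7% of genes. In a principal component analysis of the 8 arrays the first component, with 48.5% of the variance, put all 24 h arrays on one side and all 72 h arrays on the other. On the second component, with 16.4%, 24 h array 17 stood apart at 42.4, with the other arrays from -21.7 to 16, and its weight in a fit with array weights was the lowest of all 16 arrays at 0.609. Genes typical of the atria were high on 24 h array 16, at -0.03, -0.17, 1.48 and -0.02 above sham on the 24 h arrays and 0.23, 0.51, 0.17 and 0.45 on the 72 h arrays, as the mean of 14 genes. Counts were therefore also taken without 24 h array 16 and 72 h arrays 21 and 23, here called the 3 arrays high in atrial genes, and without 24 h arrays 16 and 17. In the atrial list 24 h array 16 alone passed the outlier limit given further below. The 72 h arrays 21 and 23 were only the highest of their group. Both fits hold fewer arrays, so where a call is lost, fewer hearts and atrial signal cannot be told apart. Whether the sampling of atrial tissue moved any result was not tested further. These are bulk samples, in which fewer cells of a type and less RNA per cell cannot be told apart. Signals below 6.76 are called near background, since 75% of the negative controls on the array read less. A change from or to such a level is poorly resolved in size. Among the genes named below, rises from a 24 h mean near background were those of Atp6v0d2, Bmp4, Ccnb2, Cenpe, Ciart, Col5a1, Col5a2, Cthrc1, Ctsk, Gsta3, Igfbp6, Kif20a, Lrrc17, Nid2, Phkg1, Plk1, Ptn, Sfrp1, Sfrp2, Stab1, Ube2c and Vegfd. Falls to a 72 h mean near background were those of Ankrd2, Cxcr2, Il1rn, Mmp9, Mthfd2, Nmrk2, S100a8, Sdf2l1 and Slc7a5, and genes near background at both times are marked where they appear.

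Of 19505 genes tested, 1337 were higher and 1183 lower at 72 h at an adjusted p below 0.05 (limma, Benjamini-Hochberg over all genes). These are 12.9% of all genes, 6.85% higher and 6.07% lower, and every list below is to be read against those shares. The lists and their members were chosen with earlier results of these data known. A list share above that of all genes is therefore a description and no separate support. At least 2-fold changes on the deposited scale were seen for 587 of the higher and 312 of the lower genes, and at least 4-fold changes for 90 and 55. The 4 and 4 arrays did not overlap for 15.6% of genes. The median change of all genes was -0.019. The balance of rises and falls depended on the scaling and on the arrays and genes kept. On the deposited scale 53.1% of calls were higher. The share was 48.4% with median centring and 48.9% with dim genes removed by the filter at background. It was 47.7% without 24 h array 17 and 46.4% without 24 h arrays 16 and 17. It rose to 79.9% after centring on the hybridization spike-ins and 86.7% after centring on the poly-A spike-ins. The 2 spike-in centrings moved the median of all genes to 0.169 and 0.264. The counts fell to 712 higher and 512 lower without the 3 arrays high in atrial genes, a fit with fewer arrays. The filters leave dim genes untested, so a smaller list count with a filter below can come from their removal alone.

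**Figure D1:**
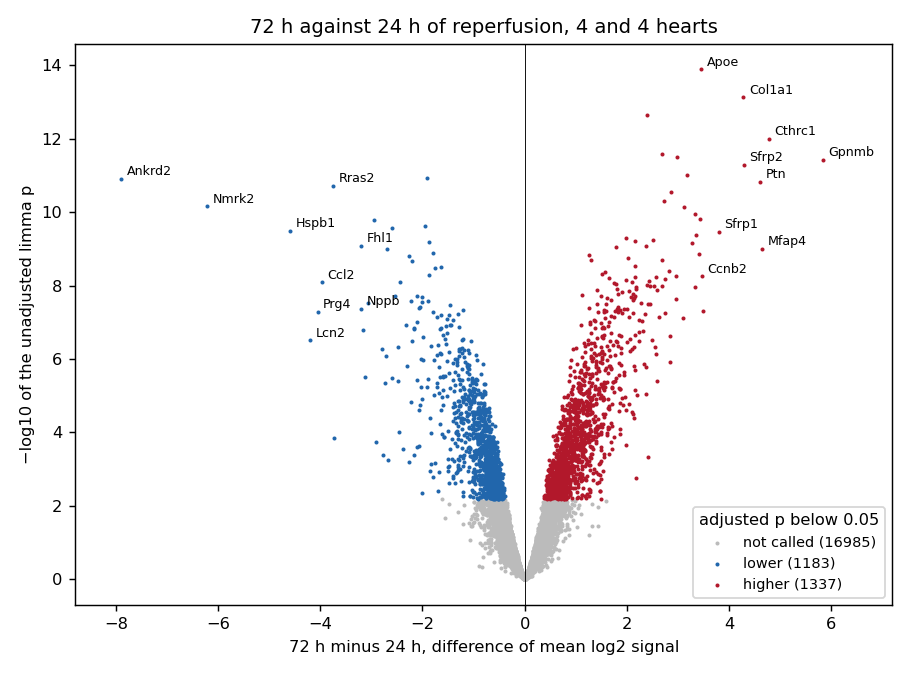
Change from 24 h to 72 h (x axis, difference of mean log2 signal) against the unadjusted limma p (y axis, −log10) for every gene tested, 4 hearts per time. Red points are the 1337 genes higher at 72 h and blue points the 1183 lower; the falls of Ankrd2 and Nmrk2 lie farthest from 0.

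**Figure D2:**
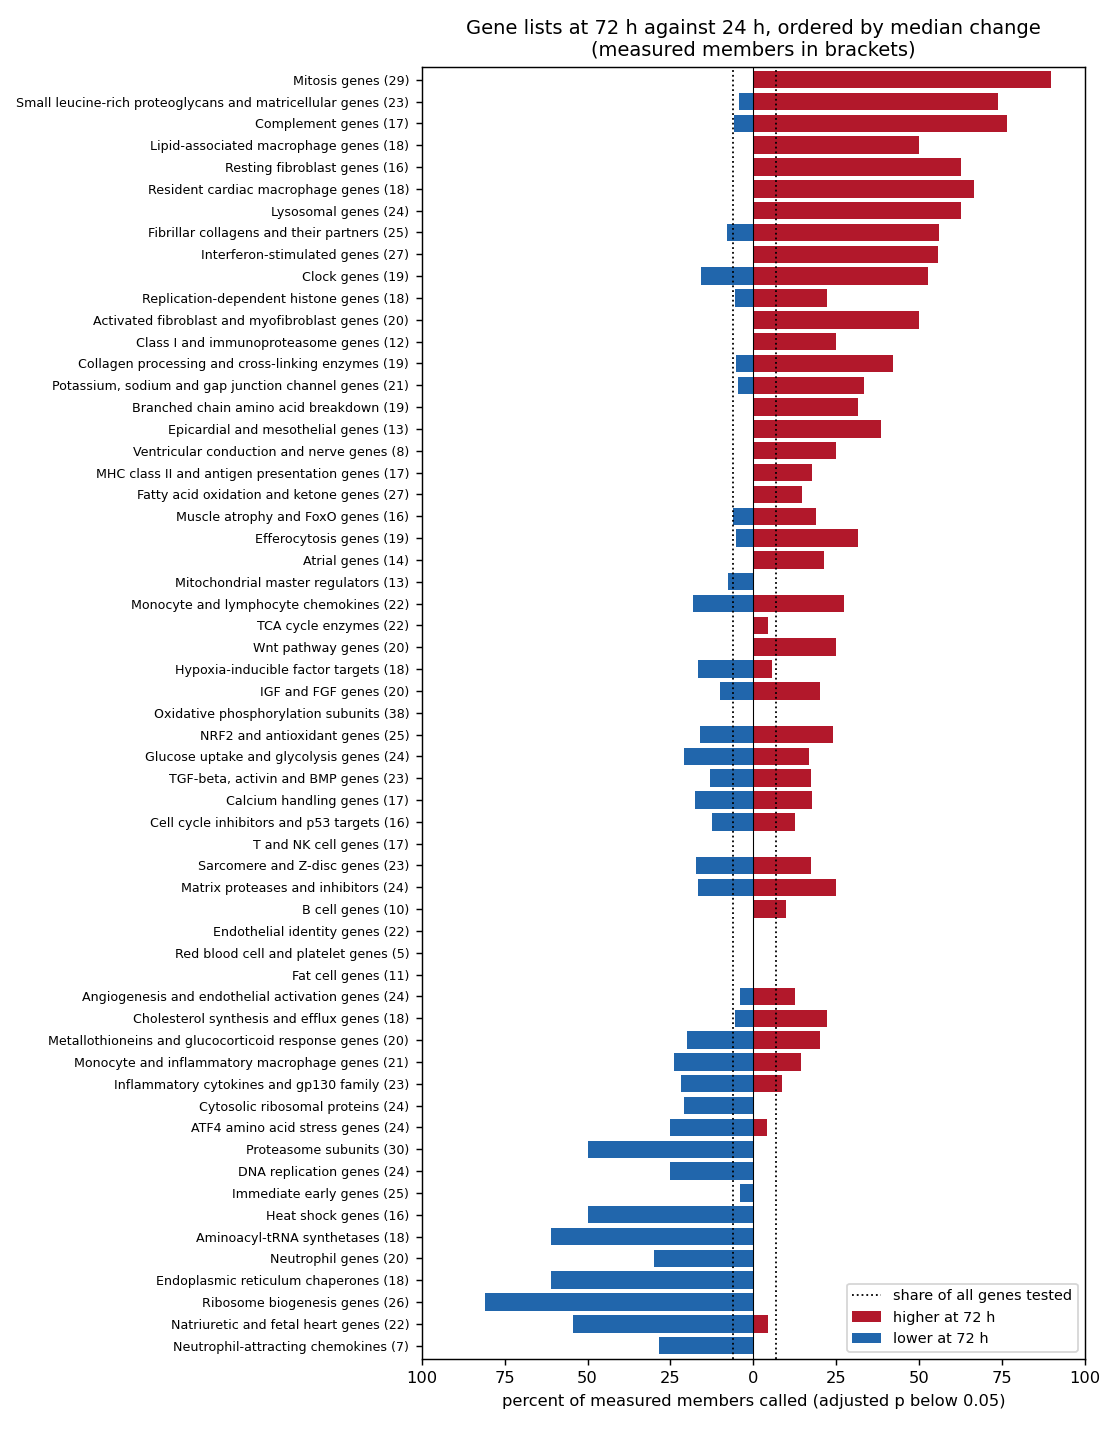
Share of the measured members of each of the 59 gene lists that was higher (red, to the right) or lower (blue, to the left) at 72 h, ordered by median change; dotted lines mark the 6.85% and 6.07% of all genes. Mitosis genes reach 89.7% higher and ribosome biogenesis genes 80.8% lower.

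The largest rise was that of Gpnmb, a membrane glycoprotein of phagocytes that handle lipid and debris. Gpnmb read 7.26, 8.47, 7.87 and 6.28 on the 24 h arrays and 13.77, 12.69, 12.54 and 14.21 on the 72 h arrays, with sham arrays at 5.48 to 6.01. The change was 5.83 ± 0.38 (adjusted p = 1.06e-08). The rule for the 15 largest rises and 15 largest falls admitted only genes whose 4 and 4 arrays did not overlap. Their separation is therefore no separate support. Apoe, the lipid carrier that macrophages secrete, read 13.94, 13.79, 14.40 and 13.81 on the 24 h arrays and 17.54, 17.61, 17.09 and 17.51 on the 72 h arrays, a change of 3.45 ± 0.16 (adjusted p = 2.55e-10). Sham hearts read 14.42 to 14.65, so Apoe was below the sham range at 24 h and above it at 72 h. Among the 15 largest rises were also Pltp, a phospholipid transfer protein, with 3.33 ± 0.26, and Ms4a7, a membrane protein of macrophages, with 3.28 ± 0.29.

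Most of the other leading rises belong to the matrix and its regulators. Col1a1, which encodes the main chain of type I collagen, read 9.72, 9.13, 8.84 and 8.83 on the 24 h arrays and 13.92, 13.49, 12.84 and 13.37 on the 72 h arrays, a change of 4.28 ± 0.22 (adjusted p = 7.38e-10). Every 24 h heart was above the sham range of 7.52 to 7.78. Cthrc1, a secreted protein of collagen-producing fibroblasts, read 3.63, 4.78, 4.92 and 4.55 on the 24 h arrays and 9.71, 9.20, 8.67 and 9.44 on the 72 h arrays, a change of 4.78 ± 0.29 (adjusted p = 4.88e-09). Mfap4, a microfibril protein, rose by 4.65 ± 0.42, and Ptn, the growth factor pleiotrophin, rose by 4.61 ± 0.33. Sfrp1 and Sfrp2, secreted proteins that bind Wnt ligands, rose by 3.80 ± 0.32 and 4.29 ± 0.28. Lrrc17 and Islr, leucine-rich secreted proteins of stromal cells, rose by 3.43 ± 0.28 and 3.33 ± 0.35.

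The largest falls were those of Ankrd2, Nmrk2 and Hspb1, followed by those of Lcn2, Prg4 and Ccl2, which are given further below. Ankrd2, a muscle ankyrin repeat protein that responds to stretch, read 11.49, 12.87, 12.89 and 11.47 on the 24 h arrays and 4.46, 4.02, 4.34 and 4.33 on the 72 h arrays. The change was -7.89 ± 0.55 (adjusted p = 2.21e-08), and the 72 h arrays lay within the sham range of 3.59 to 4.88, near background. Nmrk2, a nicotinamide riboside kinase of muscle that feeds NAD synthesis, read 13.06, 12.83, 13.09 and 11.82 on the 24 h arrays and 6.37, 6.29, 6.41 and 6.84 on the 72 h arrays. It fell by 6.22 ± 0.48 (adjusted p = 8.22e-08) to about its sham range of 5.63 to 6.74. Hspb1, a small heat shock protein, read 14.38, 16.63, 15.33 and 14.06 on the 24 h arrays and 10.94, 10.60, 9.89 and 10.63 on the 72 h arrays. It fell by 4.59 ± 0.39 (adjusted p = 2.74e-07), and 4 of 4 hearts at 72 h were below the lowest sham heart, in a range of 11.20 to 12.03. Fhl1, a LIM protein that binds titin, fell by 3.20 ± 0.28. Rras2, a small GTPase of the Ras family, fell by 3.75 ± 0.27.

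Muscle structure genes were also among the 15 largest falls. Flnc, a filamin that links the Z-disc to the membrane, fell by 3.06 ± 0.34. Klhl41, a kelch protein of muscle, fell by 2.94 ± 0.24 and Synpo2l, an actin-binding Z-disc protein, fell by 2.79 ± 0.38. Secreted inflammatory proteins made up another part. Lcn2, a lipocalin that binds iron-carrying bacterial compounds, fell by 4.20 ± 0.55 and Ccl2, the main attractant of monocytes, fell by 3.98 ± 0.41. Ccl2 read 12.21, 12.83, 13.35 and 10.93 on the 24 h arrays and 7.43, 8.69, 7.96 and 9.35 on the 72 h arrays, so the hearts at 72 h remained above the sham range of 5.35 to 5.77. Ccl7, a second ligand of the same receptor, fell by 3.12 ± 0.48. Prg4, the lubricant glycoprotein lubricin, fell by 4.05 ± 0.47 and Fstl3, which binds activin, fell by 3.16 ± 0.39. Chil3, a chitinase-like protein of monocytes and macrophages, fell by 2.77 ± 0.65, a call that was lost without the 3 arrays high in atrial genes (adjusted p = 0.0617).

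**Figure D3:**
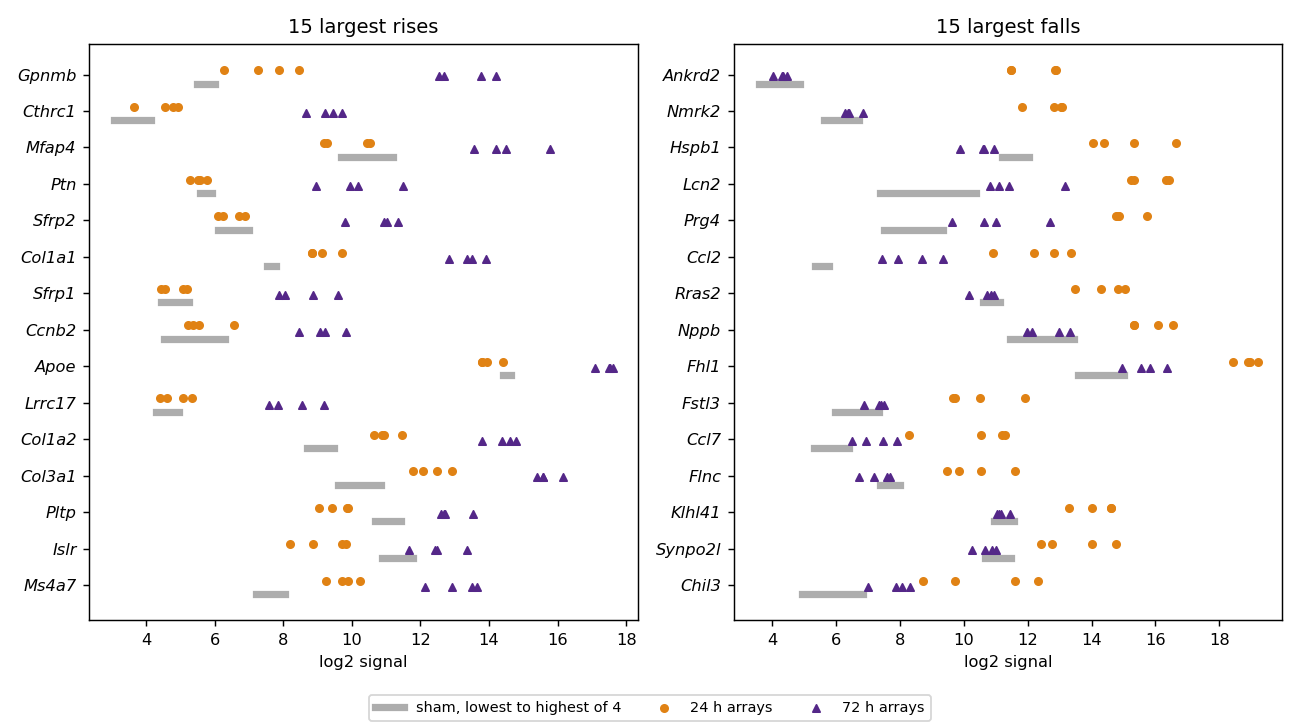
Log2 signal on each array (x axis) of the 15 largest rises and the 15 largest falls: orange points are the 4 arrays at 24 h, purple triangles the 4 at 72 h and the grey bar spans the 4 sham arrays. The 24 h and 72 h points of each gene do not overlap, as the rule for naming required; Ankrd2 and Nmrk2 fell to about their sham range and Gpnmb and Col1a1 rose away from it.

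Of 25 measured genes of fibrillar collagens and their partners, 14 were higher (56%) and 2 lower, with a median change of 0.81, against −0.019 for all genes. Col1a2 and Col3a1, the other chains of the collagens that fill a scar, rose by 3.41 ± 0.31 and 3.36 ± 0.29. Col5a1 and Col5a2, which regulate fibril width, rose by 2.18 ± 0.23 and 2.17 ± 0.23, and Postn, a matricellular protein of activated fibroblasts, rose by 2.64 ± 0.31. The 2 falls in the list were Col4a1 and Col4a2, the chains of basement membrane collagen, at -1.10 ± 0.20 and -0.81 ± 0.15, named after their values were seen. The list mean above sham was 1.58, 1.30, 1.34 and 1.40 on the 24 h arrays and 2.70, 2.27, 2.23 and 2.49 on the 72 h arrays, and these ranges did not overlap. With poly-A spike-in centring the fall of Col4a2 was no longer called (adjusted p = 0.0778).

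Enzymes that mature collagen gave a smaller and less stable count. Of 19 measured, 8 were higher and 1 lower. Lox, the lysyl oxidase that cross-links collagen, read 9.12, 8.74, 8.90 and 9.39 on the 24 h arrays and 12.37, 12.20, 11.43 and 12.63 on the 72 h arrays, a change of 3.12 ± 0.24 (adjusted p = 8.22e-08). Loxl3 of the same family rose by 2.14 ± 0.29, the procollagen proteinase Bmp1 rose by 1.31 ± 0.18 and Pcolce, which enhances it, rose by 1.32 ± 0.22. P4ha3, a prolyl hydroxylase subunit near background, rose by 1.51 ± 0.19. The count of higher genes was 5 without 72 h array 20, without the 3 arrays high in atrial genes or without both 24 h arrays 16 and 17. The call of the only fall, P4ha1 at -0.64 ± 0.20, was lost in 11 of the 21 alternative settings, with adjusted p up to 0.241.

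Small proteoglycans and matricellular genes, which coat collagen fibrils or sit in the matrix without bearing load, rose in 17 of 23 measured genes (73.9%) with a median of 1.39. Aspn, asporin, rose by 2.84 ± 0.36 and Thbs2, thrombospondin 2, rose by 2.99 ± 0.19. Omd, osteomodulin, rose by 1.72 ± 0.23 from and to levels near background. The single fall was Ccn2, connective tissue growth factor, which read 12.34, 13.95, 13.83 and 10.88 on the 24 h arrays and 10.87, 10.30, 9.05 and 10.97 on the 72 h arrays and fell by 2.45 ± 0.50 (adjusted p = 0.00228). Without 24 h array 17 there were 2 falls in this list. The groups overlapped at 24 h array 17. Sham arrays read 7.37 to 7.65 for Ccn2, a gene often used as a readout of TGF-beta and of mechanical load.

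Matrix proteases and their inhibitors moved in both directions, 6 higher and 4 lower of 24. Mmp2, gelatinase A of stromal cells, rose by 2.74 ± 0.32, while Mmp9, gelatinase B of neutrophils and macrophages, fell by 2.27 ± 0.56 (adjusted p = 0.00925). The inhibitors Timp2 and Timp3 rose by 2.08 ± 0.23 and 1.65 ± 0.17. Timp1 changed by -0.77 ± 0.50 (adjusted p = 0.405), which did not pass the test. The count of lower genes was 2 without 24 h array 15 or 16 or without 72 h array 20 or 22.

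Of 16 resting fibroblast genes 10 were higher and 0 lower, with a median of 0.94. Dpep1, a dipeptidase, rose by 2.51 ± 0.22, Htra3, a secreted protease, rose by 2.27 ± 0.25 and Dpt, dermatopontin, rose by 2.25 ± 0.27. Pi16, a marker of a fibroblast population near vessels, rose by 1.68 ± 0.33. Of 20 genes of activated fibroblasts and myofibroblasts 10 were higher and 0 lower, with a median of 0.56. Changes in this list ran from -1.615 to 4.78, and 2 members were lower at an unadjusted p below 0.05 in limma. The count of lower genes was 1 without 24 h array 17, without 72 h array 20, after quantile normalization or with median centring. It was also 1 with array weights or without both 24 h arrays 16 and 17. Each of the filters at the 25th percentile, the median and background gave 1 as well. Fap, fibroblast activation protein, rose by 1.79 ± 0.23 and Ddah1, which breaks down methylated arginine, rose by 1.97 ± 0.33. Acta2, smooth muscle actin of myofibroblasts and vessels, changed by 0.34 ± 0.24 (adjusted p = 0.476) and was not called.

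Secreted signals of the repair tissue were split. Of 20 Wnt pathway genes 5 were higher and 0 lower, and besides Sfrp1 and Sfrp2 these included Frzb, another decoy receptor, at 1.01 ± 0.21, and Dkk3, near background, at 1.11 ± 0.20. The Wnt count was 9 with poly-A spike-in centring and 3 without the 3 arrays high in atrial genes, and a call was lost for Frzb without the 3 arrays high in atrial genes (adjusted p 0.0577). Of 23 TGF-beta, activin and BMP genes 4 were higher and 3 lower. Tgfb3 rose by 1.41 ± 0.28 and Bmp4 rose by 1.15 ± 0.23, whereas Tgfb2 fell by 1.25 ± 0.23. Their count of higher genes was 2 without the 3 arrays high in atrial genes or without both 24 h arrays 16 and 17. Among 20 IGF and FGF genes 4 rose and 2 fell, led by Igf1, the growth factor that macrophages and fibroblasts supply, at 1.74 ± 0.27. Its binding proteins Igfbp4, Igfbp5 and Igfbp6 rose by 1.15 ± 0.21, 1.21 ± 0.22 and 1.34 ± 0.26, and Fgf18 fell by 1.22 ± 0.21. In other settings the higher genes numbered 7 with hybridization spike-in centring and 9 with poly-A spike-in centring, and the lower genes 1 without 24 h array 15 or 16, without 72 h array 20, 21 or 23, with hybridization spike-in centring, with poly-A spike-in centring, in a fit of the 2 groups alone, without the 3 arrays high in atrial genes or without both 24 h arrays 16 and 17.

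Of 18 lipid-associated macrophage genes 9 were higher and 0 lower, with a median of 1.06. Trem2, a lipid-sensing receptor, read 6.75, 7.88, 7.34 and 5.67 on the 24 h arrays and 10.56, 10.25, 8.87 and 10.36 on the 72 h arrays, a change of 3.10 ± 0.37 (adjusted p = 1.16e-05). Atp6v0d2, a subunit of the proton pump of macrophages, rose by 2.97 ± 0.30 and Fabp5, a fatty acid binding protein, rose by 1.39 ± 0.28. Averaged over the list, arrays stood above sham at 1.28, 1.54, 1.60 and 0.93 at 24 h and 2.75, 2.57, 2.17 and 3.10 at 72 h, without overlap. Genes of resident cardiac macrophages were higher in 12 of 18, among them the C1q chains and Cbr2, a carbonyl reductase, at 1.20 ± 0.23, and Folr2, a folate receptor, at 1.06 ± 0.24. Changes among these 18 genes ran from -0.82 to 2.135. Of that list 0 were lower in limma (1 at an unadjusted p below 0.05), a lower count that was 1 without 24 h array 15, without 72 h array 21, with median centring, with the filter at the 25th percentile, with the filter at the median, with the filter at background or with the trend and robust settings. Igf1 and C1q stand in this list too, so the lists do not count separate genes throughout.

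Of 24 measured lysosomal genes 15 were higher (62.5%) and 0 lower, with a median of 0.88. The cathepsins Ctss, Ctsh and Ctsk, proteases of the lysosome, rose by 2.24 ± 0.28, 1.62 ± 0.22 and 1.54 ± 0.27. Hexa, which cuts gangliosides, rose by 1.57 ± 0.15 and Npc2, which moves cholesterol out of the lysosome, rose by 1.56 ± 0.19. Abca1, the exporter of cholesterol, read 9.57, 9.39, 9.75 and 9.57 on the 24 h arrays and 12.12, 11.43, 11.50 and 11.76 on the 72 h arrays, a change of 2.13 ± 0.25 (adjusted p = 9.1e-06), with sham at 9.77 to 10.94. Of 19 efferocytosis genes, which serve the uptake of dying cells, 6 were higher, among them the receptor Mertk at 1.09 ± 0.18 and Stab1 at 1.00 ± 0.19, and the count was 3 without the 3 arrays high in atrial genes; 1 was lower, a count that was 0 without 24 h array 14, 15 or 16, without 72 h array 20, 21 or 22, with hybridization spike-in centring, with poly-A spike-in centring, in a fit of the 2 groups alone or without the 3 arrays high in atrial genes.

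Of 20 measured neutrophil genes 6 were lower (30%), 0 higher and 14 not called, and 10 of the 20 were near background at both times. S100a8, a calcium-binding protein that neutrophils hold in bulk, read 8.33, 10.31, 10.78 and 6.38 on the 24 h arrays and 5.32, 6.41, 3.86 and 5.32 on the 72 h arrays. It fell by 3.72 ± 0.79 (adjusted p = 0.00294), with 24 h array 17 at the level of the highest 72 h heart, so the groups overlapped. Cxcr2, the neutrophil chemokine receptor, fell by 2.91 ± 0.63 and Clec4e, which senses damaged cells, fell by 2.12 ± 0.33. The list mean above sham was 1.68, 2.48, 2.80 and 0.86 on the 24 h arrays against 0.80, 1.38, 0.39 and 0.90 on the 72 h arrays, which overlapped at 24 h array 17, and the count of lower genes was 10 without 24 h array 17. Of 7 chemokines that draw neutrophils 2 were lower, both near background: Cxcl1 at -1.41 ± 0.27 and Cxcl2 at -1.27 ± 0.33. The filters at the median and at background removed both genes untested, so that count was 0 there by construction. It was 1 without 24 h array 16. The call of Cxcl2 was lost without 24 h array 16, without the 3 arrays high in atrial genes or without both 24 h arrays 16 and 17 (adjusted p 0.0512 to 0.248).

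Genes of inflammatory monocytes and macrophages were mixed, 3 higher and 5 lower of 21. Arg1, arginase 1, ranged from 8.95 to 11.56 on the 24 h arrays and from 6.01 to 8.63 on the 72 h arrays and fell by 2.38 ± 0.54 (adjusted p = 0.00482). The general macrophage genes Csf1r and Adgre1, the receptor for the survival factor of macrophages and the antigen F4/80, rose by 1.45 ± 0.24 and 1.23 ± 0.18. Relative to sham the list averaged 2.74, 3.39, 4.06 and 2.11 at 24 h and 2.86, 3.26, 2.14 and 3.23 at 72 h, so as a whole it overlapped between the times. The count of lower genes was 3 without 24 h array 15 or 16, without 72 h array 20, 21 or 22, with hybridization spike-in centring, with poly-A spike-in centring or in a fit of the 2 groups alone and 2 without the 3 arrays high in atrial genes, and that of higher genes 5 without 72 h array 22 or with poly-A spike-in centring. Of 23 cytokine genes 5 were lower and 2 higher. Il1b, interleukin 1 beta, fell by 2.17 ± 0.51 and its antagonist Il1rn fell by 2.47 ± 0.39. Il33, an alarmin of stromal cells, rose by 1.84 ± 0.34. Il6, near background, changed by -0.68 ± 0.47 (adjusted p = 0.451) and did not pass the test. The count of lower cytokines was 3 without 24 h array 15, without 72 h array 20, with the filter at the median, with the filter at background, in a fit of the 2 groups alone or without the 3 arrays high in atrial genes, and that of higher ones 4 with poly-A spike-in centring and 1 without the 3 arrays high in atrial genes.

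Chemokines for monocytes and lymphocytes split by ligand, 6 higher and 4 lower of 22. Ccl8 read 3.76, 3.93, 4.14 and 3.55 on the 24 h arrays and 6.57, 6.42, 6.61 and 6.57 on the 72 h arrays, a change of 2.70 ± 0.17 (adjusted p = 9.95e-09) with every 72 h heart above every 24 h heart though near background. Cxcl16, a membrane-bound chemokine of macrophages, rose by 1.75 ± 0.21 and Ccl21a, a lymphatic chemokine with near-identical copies that the array may not separate, rose by 2.55 ± 0.34. In other settings the higher genes numbered 3 without 24 h array 15 or without the 3 arrays high in atrial genes. Lymphocyte markers could hardly be tested, since 16 of 17 T and NK cell genes and 9 of 10 B cell genes were near background at both times. In limma 0 of 17 T and NK cell genes were higher and 0 lower (0 and 0 at an unadjusted p below 0.05), and 1 of 10 B cell genes passed, Cd22, near background, at 0.67 ± 0.19. The T and NK list had 1 call with poly-A spike-in centring. A call was lost for Cd22 without 24 h array 14, 15 or 17, without 72 h array 20 or 21 or in a fit of the 2 groups alone (adjusted p 0.053 to 0.0928).

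Complement genes rose in 13 of 17 measured (76.5%), with a median of 1.28. C1qa, C1qb and C1qc, the chains of the recognition molecule C1q, rose by 1.77 ± 0.20, 2.11 ± 0.22 and 2.13 ± 0.23. C1ra and C1s1, the proteases that C1q switches on, rose by 2.00 ± 0.23 and 2.04 ± 0.22, and Serping1, the inhibitor of those proteases, rose by 1.98 ± 0.17. The 24 h arrays lay at 0.41, 0.39, 0.64 and 0.29 above sham as a mean of the list, and the 72 h arrays at 1.91, 1.56, 1.37 and 1.52. The count of falls, that of Masp1 alone, was 0 without 24 h array 14, 15 or 17, without 72 h array 21, 22 or 23, with hybridization spike-in centring, with poly-A spike-in centring, in a fit of the 2 groups alone or without the 3 arrays high in atrial genes.

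Interferon-stimulated genes were higher in 15 of 27 and lower in 0, with a median of 0.73. Ifit3, which binds foreign RNA, read 9.41, 9.21, 10.35 and 10.00 on the 24 h arrays and 11.97, 11.38, 11.38 and 11.67 on the 72 h arrays, a change of 1.86 ± 0.37 (adjusted p = 0.00194). Oasl2 rose by 1.75 ± 0.29, Irf7, a transcription factor of the response that is near background here, rose by 1.31 ± 0.26 and Iigp1, an interferon-inducible GTPase, rose by 1.25 ± 0.26. The count was 8 without 24 h array 15 and 7 without the 3 arrays high in atrial genes. Class II genes of antigen presentation were higher in 3 of 17: H2-Aa rose by 1.50 ± 0.30, H2-Ab1 by 1.30 ± 0.29 and H2-Eb1 by 1.63 ± 0.33. That count was 6 with poly-A spike-in centring and 1 without the 3 arrays high in atrial genes, with calls lost for H2-Ab1 (adjusted p = 0.117) and H2-Eb1 (adjusted p = 0.0512) in that last setting. Class I genes were higher in 3 of 12, a count that was 7 with hybridization spike-in centring, with the filter at the median or with the filter at background, 9 with poly-A spike-in centring, 5 with the filter at the 25th percentile or with the trend and robust settings, 6 with array weights and 1 without 24 h array 14, without 72 h array 20 or 21 or without the 3 arrays high in atrial genes. Psmb8, a subunit of the immunoproteasome, differed by 0.44 ± 0.20 (adjusted p = 0.186) and was not called; with poly-A spike-in centring it was called at 0.72 (adjusted p = 0.0156).

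Most genes of mitosis rose. Of 29 mitosis genes 26 were higher (89.7%) and 0 lower, with a median of 1.49. Of the 26 called, 9 were near background at both times, so their changes are poorly resolved in size. Ccnb2, cyclin B2, which drives entry into mitosis, read 6.57, 5.53, 5.23 and 5.36 on the 24 h arrays and 9.07, 9.20, 8.46 and 9.83 on the 72 h arrays, a change of 3.47 ± 0.35 (adjusted p = 2.09e-06). The 24 h and 72 h arrays did not overlap, as the rule for the 15 largest rises required, and array 14 was the highest at 24 h. Plk1, a kinase of the mitotic spindle, rose by 2.85 ± 0.41, Ube2c, which marks cyclins for destruction, rose by 2.83 ± 0.28, and the motors Cenpe and Kif20a rose by 2.38 ± 0.40 and 2.38 ± 0.35. Mki67, the proliferation marker, rose by 2.42 ± 0.57, with the call lost without the 3 arrays high in atrial genes (adjusted p = 0.255) and without both 24 h arrays 16 and 17 (adjusted p = 0.134). The list mean above sham was 1.59, 1.04, 0.36 and 0.69 at 24 h and 2.30, 2.59, 2.00 and 3.10 at 72 h, without overlap. The count of higher genes was 17 with the filter at background, 10 without the 3 arrays high in atrial genes and 14 without both 24 h arrays 16 and 17. The filter at background left 17 mitosis genes to test, and 17 of them were called. It keeps a gene when either group mean is above background. Ccnb2, Plk1, Ube2c, Cenpe and Kif20a entered by their 72 h mean alone, so this count is no separate support.

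Of 24 DNA replication genes 0 were higher and 6 lower (25%), with a median of -0.45. Mcm6, a subunit of the helicase that opens DNA, read 10.18, 10.29, 10.45 and 9.37 on the 24 h arrays and 8.73, 9.25, 8.65 and 9.24 on the 72 h arrays and fell by 1.10 ± 0.20 (adjusted p = 0.000958). The sham range was 7.52 to 7.82, below both times. As a mean of the list, the arrays lay above sham at 1.76, 1.61, 1.29 and 1.05 at 24 h and 0.72, 1.12, 0.73 and 1.37 at 72 h, which overlapped. The count of lower genes was 1 without 72 h array 20, with hybridization spike-in centring or with poly-A spike-in centring, 3 without 24 h array 14 or 16, 2 without 24 h array 15 or without 72 h array 22, 11 without 24 h array 17 and 12 without both 24 h arrays 16 and 17, and 0 members were called higher on the deposited scale. Histone genes made with DNA replication were higher in 4 of 18, all of them H4 genes whose near-identical sequences the array may not separate. In the same list 1 gene, of histone H1, was lower at -1.335 ± 0.271 (adjusted p = 0.00221). The count of higher histone genes was 8 with hybridization spike-in centring, 12 with poly-A spike-in centring, 7 with the filter at the median, 11 without 24 h array 14, 1 without 24 h array 16 or 17 or without 72 h array 21 or 23, 2 without 72 h array 20 and 0 without the 3 arrays high in atrial genes or without both 24 h arrays 16 and 17. Of 16 cell cycle inhibitors and p53 targets 2 were higher and 2 lower. These counts were 1 without 24 h array 17 or without 72 h array 20 or 22 and 0 without both 24 h arrays 16 and 17 for higher and 0 without 24 h array 15 or 16, with the trend and robust settings or without the 3 arrays high in atrial genes and 1 without 72 h array 20, 21 or 22 or in a fit of the 2 groups alone for lower genes.

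**Figure D4:**
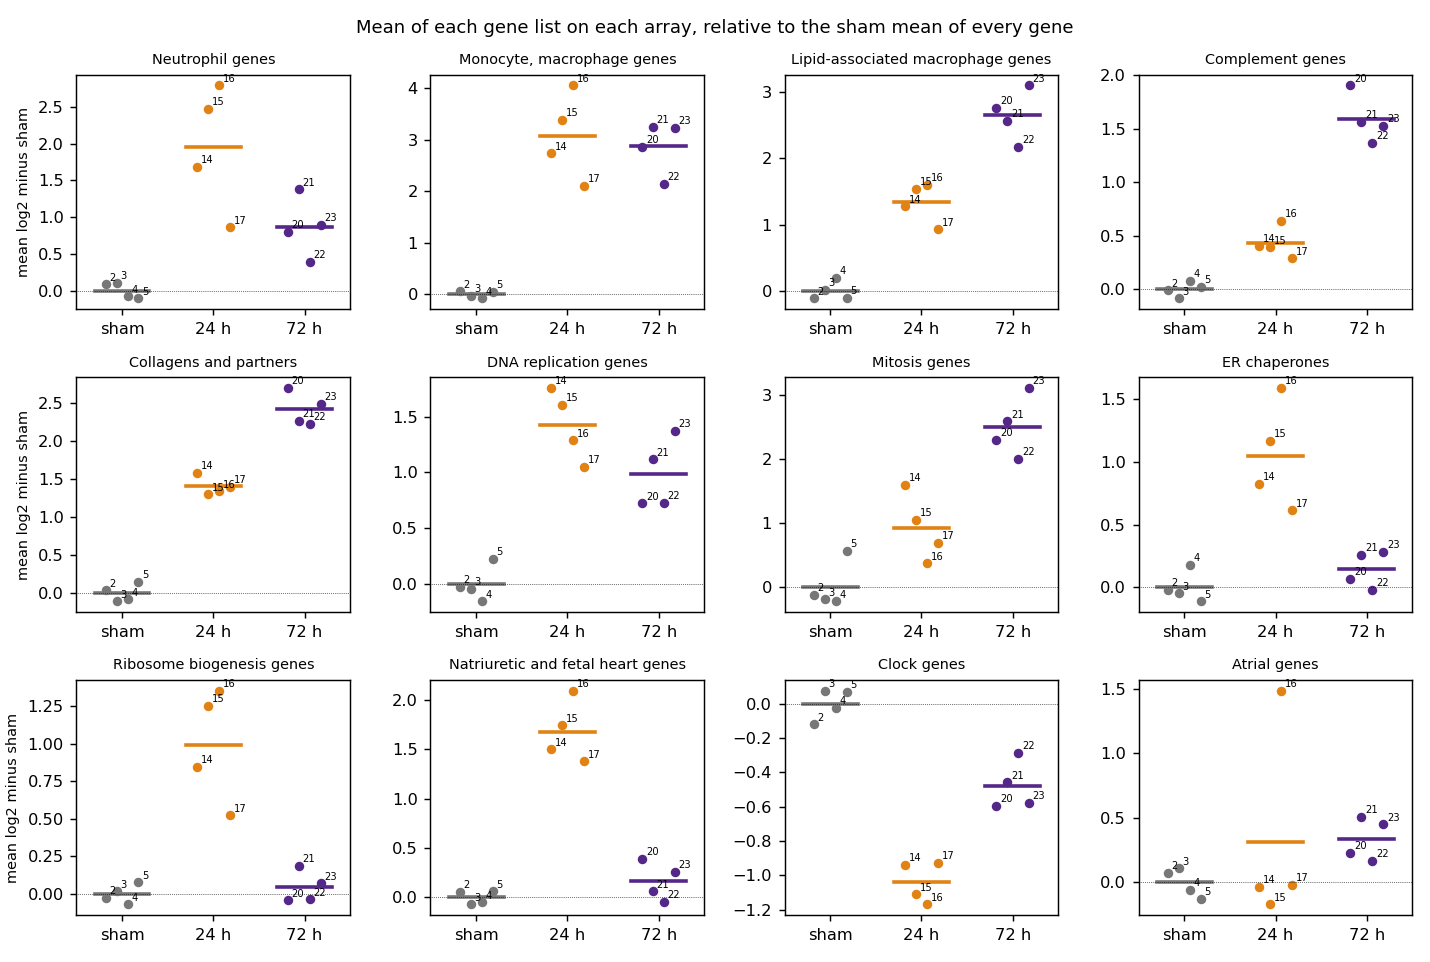
Mean of a gene list on each array relative to the sham mean of every gene (y axis, log2), for 4 arrays each of sham, 24 h and 72 h labelled by replicate number; the bar is the group mean. Mitosis, collagen, complement and lipid-associated macrophage lists lie higher at 72 h without overlap, and 24 h array 16 stands at 1.48 in the atrial list.

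Promoters of these lists are shown because each list is known for its own promoter element, CHR for mitosis and E2F for replication. Windows of RefSeq (GRCm38.p6) from 250 bases before to 50 after each start were searched on both strands. The CHR element, searched as TTTGAA or TTTAAA, stood in 21 of 24 mitosis promoters with a window (87.5%) and in 27.6% of those of all measured genes, with 35.0% of replication promoters. The CCAAT box stood in 19 of the 24 (79.2%) against 42.2%, but it was also in 65.0% of replication, 88.2% of endoplasmic reticulum chaperone, 76.5% of clock and 65.0% of ATF4 amino acid stress promoters. The E2F site, searched as TTTCCCGC, TTTGGCGC, TTTCGCGC or TTTGCCGC, stood in 9 of 20 replication promoters (45.0%) against 3.4% of genes and 4.2% of mitosis promoters. A match of letters is a description only. TTTAAA reads the same on both strands, and neighbouring E2F matches may overlap, as in Mcm6. In the stretches printed 5′ to 3′ on the gene's strand, capitals mark CHR elements and CCAAT boxes in Ccnb2 (chr9:70421530-70421736, minus strand), Plk1 (chr7:122159331-122159484, plus) and Cenpe (chr3:135212536-135212597, plus), and E2F sites in Mcm6 (chr1:128359730-128359830, minus). 
Ccnb2: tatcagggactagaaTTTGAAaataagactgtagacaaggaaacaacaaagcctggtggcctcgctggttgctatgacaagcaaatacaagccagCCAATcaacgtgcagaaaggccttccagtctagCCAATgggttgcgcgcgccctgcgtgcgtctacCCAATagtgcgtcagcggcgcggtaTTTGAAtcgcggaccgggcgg 
Plk1: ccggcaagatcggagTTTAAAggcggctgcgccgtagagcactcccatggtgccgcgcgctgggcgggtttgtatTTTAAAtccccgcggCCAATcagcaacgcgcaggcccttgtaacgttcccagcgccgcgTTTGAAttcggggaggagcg 
Cenpe: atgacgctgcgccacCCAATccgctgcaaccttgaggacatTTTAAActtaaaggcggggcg 
Mcm6: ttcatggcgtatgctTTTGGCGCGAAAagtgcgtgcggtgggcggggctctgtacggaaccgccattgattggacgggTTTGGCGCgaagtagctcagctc

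Natriuretic and fetal heart genes fell in 12 of 22 measured (54.5%) and rose in 1, with a median of -1.03. Nppb, B-type natriuretic peptide, read 15.32, 16.08, 16.54 and 15.33 on the 24 h arrays and 12.98, 12.14, 11.99 and 13.33 on the 72 h arrays and fell by 3.20 ± 0.37 (adjusted p = 7.98e-06), to within the sham range of 11.44 to 13.44. Nppa, the atrial peptide, changed by -0.57 ± 0.28 (adjusted p = 0.235) and did not pass the test with all arrays. It is made mainly by the atria, and it passed without 72 h array 20 (adjusted p = 0.0403). Xirp2 and Xirp1, Xin actin-binding proteins of the cell-to-cell junction, fell by 2.71 ± 0.38 and 1.86 ± 0.16. The list mean above sham was 1.50, 1.74, 2.09 and 1.38 at 24 h and 0.39, 0.06, -0.05 and 0.26 at 72 h. The single rise was Myh6, the fast adult myosin heavy chain, at 0.74 ± 0.13, while Myh7, the slow chain of the fetal heart, fell by 1.24 ± 0.24.

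Sarcomere genes as a whole were split, 4 higher and 4 lower of 23. Tcap, which caps titin at the Z-disc, rose by 1.39 ± 0.24, whereas Flnc and Synpo2l fell as given above and Cryab, a small heat shock protein that protects filaments, fell by 1.11 ± 0.15. Higher genes numbered 2 without 24 h array 15 or without the 3 arrays high in atrial genes. Calcium handling genes were split too, 3 and 3 of 17. Casq1, the calcium store protein of skeletal muscle, fell by 1.61 ± 0.33 and Slc8a1, the sodium-calcium exchanger, fell by 0.99 ± 0.18. Cacna1c, the pore of the L-type calcium channel, rose by 0.96 ± 0.19. In other settings the higher genes numbered 1 without 24 h array 15, without 72 h array 22 or without the 3 arrays high in atrial genes.

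Channel genes rose in 7 of 21 and fell in 1. Kcnip2, the partner that carries the fast transient outward potassium channel to the surface, read 10.53, 9.64, 10.04 and 11.28 on the 24 h arrays and 12.74, 12.99, 13.47 and 12.62 on the 72 h arrays, a change of 2.58 ± 0.27 (adjusted p = 3.54e-06). The sham range was 13.38 to 14.15, and 1 of 4 hearts at 72 h reached it. Kcnd2, a pore subunit of the same current, rose by 2.38 ± 0.21. Gja5, a connexin of conduction tissue and arteries near background here, fell by 1.08 ± 0.18. The count of higher genes was 4 without 24 h array 16, without 72 h array 21 or 22, with the filter at the median or with the filter at background and 3 without the 3 arrays high in atrial genes, and that of lower genes 2 without 24 h array 16, after quantile normalization, with median centring, with the filter at the 25th percentile, with the filter at the median or with array weights.

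**Figure D5:**
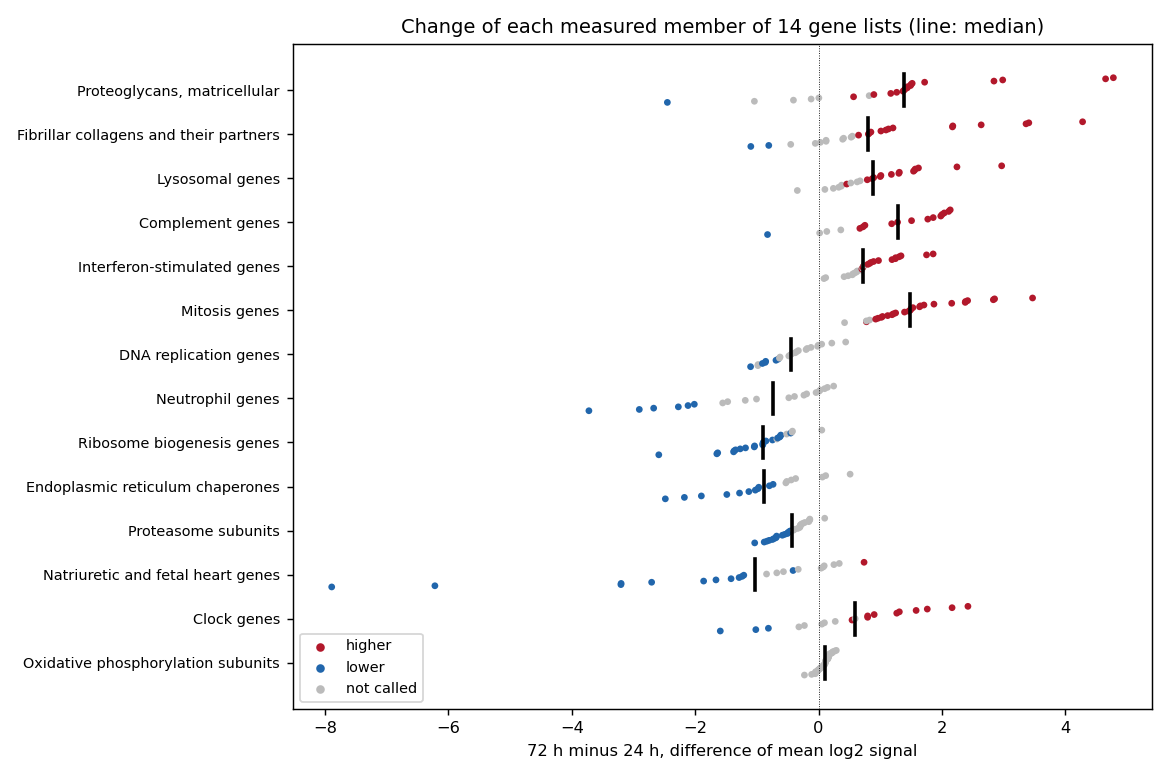
Change from 24 h to 72 h (x axis, difference of mean log2 signal) of each measured member of 14 gene lists; red and blue points passed the test as higher or lower, grey points did not, and the black line is the median of the list. Mitosis genes lie to the right of 0 and DNA replication genes mostly to the left, and the medians of the proteoglycan and ribosome biogenesis lists are 1.39 and −0.90.

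Of 18 endoplasmic reticulum chaperones 11 were lower (61.1%) and 0 higher, with a median of -0.88. Creld2, a disulfide isomerase-like protein that is a strong target of the stress response, read 9.81, 10.48, 11.64 and 9.53 on the 24 h arrays and 7.51, 8.00, 7.87 and 8.15 on the 72 h arrays. It fell by 2.48 ± 0.33 (adjusted p = 4.58e-05) to the sham range of 7.30 to 8.20. Hyou1, Sdf2l1, Hspa5 (the chaperone BiP) and Xbp1, a transcription factor of the response, fell by 2.17 ± 0.27, 1.90 ± 0.29, 1.49 ± 0.17 and 1.28 ± 0.17. Averaged over the list, arrays stood above sham at 0.82, 1.16, 1.58 and 0.61 at 24 h and 0.07, 0.26, -0.02 and 0.28 at 72 h, with array 16 highest. In other settings the higher genes numbered 1 without 24 h array 16, with hybridization spike-in centring, with poly-A spike-in centring or without both 24 h arrays 16 and 17. Of 16 heat shock genes 8 were lower and 0 higher (0 at an unadjusted p below 0.05 in limma), with Hsp90aa1, Hspb2 and Hsph1 falling by 1.60 ± 0.24, 1.60 ± 0.20 and 1.51 ± 0.30.

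The endoplasmic reticulum stress element, CCAAT and CCACG held 9 bases apart, was searched in the same promoter windows because it is known for chaperone genes of this list. It stood in 8 of 17 chaperone promoters with a window (47.1%) and in 0.2% of all measured genes. Of the 17 genes with a window 10 were called lower, and of the 8 with the element 6. Whether the element goes with the fall was not tested. The stretches below hold it in capitals, printed on the gene's strand, so that it reads in reverse where it lies on the other strand, as in Creld2. Each CCAAT of the element also counts as a CCAAT box. They come from Hspa5 (chr2:34772010-34772058, plus), Creld2 (chr15:88819505-88819553, plus) and Pdia6, a disulfide isomerase that fell by 1.13 ± 0.24 (chr12:17266476-17266524, plus). 
Hspa5: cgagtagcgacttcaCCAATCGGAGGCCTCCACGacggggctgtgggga 
Creld2: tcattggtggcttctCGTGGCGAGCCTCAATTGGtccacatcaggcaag 
Pdia6: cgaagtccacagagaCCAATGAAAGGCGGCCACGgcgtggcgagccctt

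Of 26 ribosome biogenesis genes 21 were lower (80.8%) and 0 higher, with a median of -0.90. Rrp12, which exports the ribosomal subunits from the nucleus, read 9.77, 10.64, 9.96 and 9.34 on the 24 h arrays and 7.36, 7.35, 7.37 and 7.26 on the 72 h arrays, a change of -2.59 ± 0.22 (adjusted p = 2.34e-07), and the 4 hearts at 72 h lay closely together at or just below the low end of the sham range of 7.30 to 7.63. Nop16, Mybbp1a, Utp20 and Nop58, nucleolar proteins, fell by 1.65 ± 0.23, 1.64 ± 0.29, 1.38 ± 0.24 and 1.37 ± 0.26. The list mean above sham was 0.85, 1.25, 1.35 and 0.52 at 24 h and -0.04, 0.19, -0.03 and 0.07 at 72 h, without overlap, and the count was 13 without the 3 arrays high in atrial genes. Of 24 genes of ribosomal proteins 5 were lower, a count that was 1 with hybridization spike-in centring or with poly-A spike-in centring, 2 without 24 h array 14, 15 or 16, without 72 h array 22, in a fit of the 2 groups alone or without the 3 arrays high in atrial genes, 9 without 24 h array 17 and 3 without 72 h array 21.

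Of 18 aminoacyl-tRNA synthetases 11 were lower, with a median of -0.64, led by Yars and Rars at -1.09 ± 0.16 and -1.08 ± 0.19. That count was 3 with hybridization spike-in centring or with poly-A spike-in centring, 5 without 24 h array 15 or in a fit of the 2 groups alone, 6 without 24 h array 16, 7 without 72 h array 20 and 4 without the 3 arrays high in atrial genes. Of 30 proteasome subunits 15 were lower, with a median of -0.43, led by Psmd11 at -1.03 ± 0.17 and Psma3 at -0.88 ± 0.18. That count was 4 with hybridization spike-in centring, 2 with poly-A spike-in centring and 5 without the 3 arrays high in atrial genes. For both lists the count therefore depends on the scaling. ATF4 targets, which answer lack of amino acids, were lower in 6 of 24: Psat1, of serine synthesis, fell by 2.06 ± 0.36, the amino acid carrier Slc7a5 fell by 1.43 ± 0.34 and Mthfd2, of mitochondrial folate metabolism, fell by 1.30 ± 0.28. Nupr1 rose by 1.35 ± 0.24. The count of higher ATF4 genes was 3 with hybridization spike-in centring or with poly-A spike-in centring and 2 without 24 h array 16, without 72 h array 23, with the filter at the 25th percentile or with array weights.

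Energy metabolism changed in single genes. Of 38 subunits of oxidative phosphorylation 0 passed in either direction in limma (0 higher and 0 lower at an unadjusted p below 0.05), with a median of 0.11. Of 27 fatty acid oxidation and ketone genes 4 were higher, a count that was 8 with hybridization spike-in centring, 10 with poly-A spike-in centring and 2 without the 3 arrays high in atrial genes. Ucp3, a mitochondrial carrier that follows fatty acid supply, read 8.42, 7.39, 8.23 and 7.17 on the 24 h arrays and 9.94, 9.21, 10.34 and 9.94 on the 72 h arrays, a change of 2.05 ± 0.36 (adjusted p = 0.00063). Pdk4, the kinase that holds back glucose oxidation, rose by 1.38 ± 0.28. Glucose genes were split, 4 higher and 5 lower of 24. Slc2a4, the insulin-responsive glucose carrier of muscle, rose by 1.31 ± 0.18 and Slc2a1, the basal carrier, fell by 1.29 ± 0.27. Hk1 and Pfkp, a hexokinase and a phosphofructokinase of non-muscle tissue, fell by 1.33 ± 0.19 and 1.51 ± 0.19. Phkg1, a subunit of muscle phosphorylase kinase, rose by 1.86 ± 0.21. The counts were 8 with poly-A spike-in centring and 2 without the 3 arrays high in atrial genes for higher genes and 3 with hybridization spike-in centring, with poly-A spike-in centring or without the 3 arrays high in atrial genes for lower ones. Genes of branched chain amino acid breakdown were higher in 6 of 19, a count that was 3 without 24 h array 16, without 72 h array 21, with median centring or in a fit of the 2 groups alone, 10 with hybridization spike-in centring or with poly-A spike-in centring and 2 without 24 h array 15, without 72 h array 22 or without the 3 arrays high in atrial genes.

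Of 19 measured clock genes 10 were higher and 3 lower. Per3, a repressor of the clock, read 9.25, 8.27, 8.83 and 9.35 on the 24 h arrays and 11.16, 11.20, 11.88 and 11.14 on the 72 h arrays, a change of 2.42 ± 0.27 (adjusted p = 6.45e-06) back to about the sham range of 10.98 to 11.87. Ciart, Dbp and Hlf, factors under the control of the clock, rose by 2.17 ± 0.35, 1.76 ± 0.28 and 1.58 ± 0.25, with Hlf near background. Arntl, the activator BMAL1, fell by 1.59 ± 0.28 (adjusted p = 0.000648). The lighting cycle was 12 h, and the clock hour at which the hearts were taken is not given in the sources used here, so a difference in the hour of sampling cannot be told apart from the time of reperfusion.

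Few vessel genes passed the test. Of 22 endothelial identity genes 0 were higher and 0 lower in limma (1 and 3 at an unadjusted p below 0.05), with a median of -0.12. Higher genes numbered 1 without 24 h array 17, with hybridization spike-in centring, with poly-A spike-in centring, with the filter at the median, with the filter at background, with the trend and robust settings or with array weights, and lower genes numbered 1 without 24 h array 15, with the filter at background, with the trend and robust settings or with array weights. Of 24 angiogenesis and endothelial activation genes 3 were higher and 1 lower (lower genes numbered 2 without 72 h array 21 or in a fit of the 2 groups alone, 5 without 24 h array 17 and 0 without the 3 arrays high in atrial genes), with Vegfd, a lymphatic growth factor, at 2.17 ± 0.22 and Nid2, of basement membranes, at 1.17 ± 0.18. Mesothelial markers, of which 10 were near background at both times, rose in 5 of 13. The uroplakins Upk3b and Upk1b, near background, rose by 2.17 ± 0.32 and 1.80 ± 0.24, and Gpm6a rose by 1.20 ± 0.18; that count was 2 with the filter at the median or with the filter at background and 3 without 72 h array 22. Fat cell genes (11, 8 of them near background at both times) and red blood cell and platelet genes (5) had 0 calls in limma on the deposited scale, with 1 higher and 1 lower fat cell genes and 0 and 1 of the latter at an unadjusted p below 0.05. Of the other lists, immediate early genes had 1 lower and 0 higher of 25, hypoxia targets 1 higher and 3 lower of 18, cholesterol genes 4 and 1 of 18, muscle atrophy genes 3 and 1 of 16 and metallothioneins with glucocorticoid response genes 4 and 4 of 20. Enzymes of the TCA cycle had 1 higher of 22, regulators of mitochondria 1 lower of 13, atrial genes 3 higher of 14 and conduction and nerve genes 2 higher of 8. In each of these 9 lists a count moved by over 1.5 times under at least 1 alternative. Antioxidant genes were higher in 6 and lower in 4 of 25, with Gsta3, a glutathione transferase, at 1.70 ± 0.28 and Sod3, the extracellular superoxide dismutase, at 1.58 ± 0.19, and the counts were 3 without the 3 arrays high in atrial genes for higher and 1 with hybridization spike-in centring or with poly-A spike-in centring, 2 without 24 h array 15 or 16, without 72 h array 20 or 22 or in a fit of the 2 groups alone and 0 without the 3 arrays high in atrial genes for lower genes.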

How the data were processed

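Gene expression was measured on 1 Affymetrix array per heart in 16 mouse hearts, 4 per group. The deposited log2 values were made by the authors with Affymetrix Expression Console, per the submitters' processing notes; version and method are not given in these sources, and the log base was taken as 2. Values ran from 1.83 to 19.82, and folds may stand on a stretched scale. Another array is named in the design text than the probe identifiers show, and the series title lists other hours than the sample labels; identifiers and labels were followed. Of 28846 probe sets 19572 carried 1 symbol in the platform annotation, and the brightest per gene left 19505 genes.

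All 16 arrays entered one fit of group means in limma 3.58.1 in R 4.3.3 (lmFit, eBayes, 12 residual and 6.943 prior degrees of freedom), and p-values were adjusted by Benjamini-Hochberg over all genes. Comparisons with sham share arrays with this one and are given only as levels. On simulated data for this comparison with 50 changed genes per size among 19505, the fit found 10% of those changed by 0.5 (log2), 84% at 1 and 100% at 2 and 3, with 5 false among 152 calls. The simulation changed 200 genes, against 2520 called in the data, and gave each gene the same spread in all groups. Its rates therefore need not hold for these data. Named genes are the 15 largest rises and 15 largest falls without overlap, 14 genes fixed by name and up to 6 members of each of 59 lists (1106 of 1204 genes measured). For those rises and falls the higher group mean had to reach the median of all genes (5.97), and predicted symbols were left out. A gene could meet this by its mean at a single time, as Cthrc1 did by its 72 h mean. The members and lists were chosen with earlier results of these data known. Alternatives were 21 settings: quantile normalization, centring on the median or on either kind of spike-in control, probe sets averaged per gene, removal of dim genes (keeping means above the 25th percentile or the median of genes, or a group mean above the 75th percentile of negative controls, called background), trend and robust eBayes, array weights, a fit of the 2 groups alone, and arrays left out singly or as the sets named. Replicate numbers are shared by no groups, so nothing was paired. Promoters are from RefSeq, GRCm38.p6. Figures were drawn with matplotlib 3.10.9.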

Additional observations from a re-analysis of the deposited data

Results flagged for a closer look

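In each group of 4 arrays the gap between the highest or lowest array and the next was set against the group's range, and values whose share passed Dixon's critical value are given here. Chance alone puts about 1 in 20 groups past that limit. The mean of the atrial genes on 24 h array 16 was 1.48 above sham, with the other 24 h arrays between -0.17 and -0.02. The mean of resident cardiac macrophage genes on 24 h array 15 was 0.32, with the others from 0.59 to 0.63, and that of T and NK cell genes on 72 h array 23 was 0.33, with the others from 0.06 to 0.09.

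Single genes named in the text past the limit are given as log2 signal, 21 groups in all with the list means above, of 368 gene groups and 118 list groups. On 24 h array 14 stood Thbs2 at 9.25 (others 8.71 to 8.73). On 24 h array 15 stood Asb14 at 9.05 (others 10.26 to 10.45) and Pi16 at 6.11 (others 6.95 to 7.03). On 24 h array 16 stood Prg4 at 15.73 (others 14.75 to 14.87) and Trf at 10.02 (others 9.03 to 9.15). On 24 h array 17 stood Adgre1 at 8.94 (others 9.35 to 9.4) and C1qb at 11.07 (others 11.43 to 11.48). On 72 h array 20 stood C1ra at 9.62 (others 8.84 to 8.95), Csf1r at 13.1 (others 12.38 to 12.5), Pltp at 13.52 (others 12.61 to 12.71) and Stab1 at 7.63 (others 7.17 to 7.21). On 72 h array 21 stood Ccl8 at 6.42 (others 6.57 to 6.61) and Psmd11 at 12.43 (others 12.21 to 12.22). On 72 h array 22 stood Fap at 9.08 (others 9.66 to 9.73), Mybbp1a at 7.65 (others 8.37 to 8.49), Per3 at 11.88 (others 11.14 to 11.2), Psmb8 at 7.61 (others 8.06 to 8.14) and Slc7a5 at 5.77 (others 6.83 to 7.04).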

How the results depend on the processing

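Hearts number 4 per time, which limits the precision, and small falls depend on the scaling. The count of genes higher at 72 h was 1337; it was 2624 after centring on the poly-A spike-ins and 712 without the 3 arrays high in atrial genes. The count of lower genes was 1183; it was 463 with hybridization spike-in centring, 401 with poly-A spike-in centring and 512 without those 3 arrays. Leaving out each array in turn gave 1032 to 1327 higher and 827 to 1453 lower genes. The spike-ins differed (72 h minus 24 h) by -0.188 (hybridization, exact permutation p = 0.229, adjusted 0.286) and -0.283 (poly-A, exact permutation p = 0.0857, adjusted 0.143). With 4 arrays against 4 the smallest exact permutation p possible is 0.0286. The positive control median differed by -0.173 (exact permutation p = 0.0286, adjusted 0.0714). The array median of genes differed by 0.033 (exact permutation p = 0.0286, adjusted 0.0714). Both reached that smallest p, and neither was below 0.05 after adjustment. The negative control median differed by 0.039 (exact permutation p = 0.343, adjusted 0.343). Whether the spike-ins or the deposited scale should be used was not tested. Over the other settings both counts moved by less than 1.5 times. No paired analysis was possible because no groups share replicate numbers. Of 184 genes named, 179 passed the test, and 10 of these lost the call in at least 1 of 21 settings: P4ha1, Masp1, Cd22, Cxcl2, Mki67, H2-Eb1, H2-Ab1, Frzb, Col4a2 and Chil3. A gene that a filter removed was not tested in that setting and could not lose the call there. Over these genes and settings 0 values of a called gene changed direction. List counts were compared in size only.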

Other observations

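The genes below stand outside the lists and were chosen after their values were seen, because they were called, so they describe single genes and no group. Tubb6, a beta tubulin of stressed muscle, read 11.89, 13.14, 12.65 and 10.78 on the 24 h arrays and 9.72, 10.38, 8.93 and 10.54 on the 72 h arrays and fell by 2.22 ± 0.39 (adjusted p = 0.000581), with every 72 h heart above the sham range of 7.56 to 8.20. Tubb2a, Tubb2b, Tubb4b and Tuba4a fell by 1.77 ± 0.25, 1.71 ± 0.28, 2.23 ± 0.24 and 1.90 ± 0.21. Tubulin genes are closely related in sequence, and probe sets may share signal between them. Hbegf, an EGF receptor ligand, fell by 2.74 ± 0.43, Tnfrsf12a, the receptor of TWEAK, fell by 2.54 ± 0.28 and Odc1, which starts polyamine synthesis, fell by 1.53 ± 0.26.

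Among single genes that rose, chosen in the same way, Slc40a1, the iron exporter ferroportin, read 7.70, 7.62, 7.68 and 7.38 on the 24 h arrays and 9.40, 10.27, 9.10 and 9.71 on the 72 h arrays, a change of 2.03 ± 0.19 (adjusted p = 8.73e-07), and Trf, transferrin, rose by 2.73 ± 0.21. Aldh1a1, which makes retinoic acid, rose by 2.12 ± 0.23. Asb14 and Asb15, muscle proteins that recruit ubiquitin ligases, rose by 2.36 ± 0.28 and 1.90 ± 0.20.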
